A study of Homo sapiens with 4 samples.

Results

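Hyaluronan synthesis and breakdown genes were followed in the human glioblastoma cell line U87, cultured with or without crizotinib. This drug blocks MET, ALK and ROS1, which are receptor tyrosine kinases. The set was given by name and holds 8 genes of the 23786 features on the arrays: the synthases HAS1, HAS2 and HAS3, the hyaluronidases HYAL1, HYAL2 and HYAL3, and the hyaluronan-depolymerising proteins CEMIP and CEMIP2. All 8 had a feature. They were picked with their levels on these arrays in view, for a HAS2 level that differed between the drug-free cultures and was lower at 24 hours of drug, so every value below describes these arrays and no test was run.

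The 4 conditions, with 1 array each, were 2 µM crizotinib for 24 hours, vehicle for 24 hours, cells kept in 1 µM crizotinib for 21 days, and a culture kept alongside it without drug. All were grown in medium with serum. The labels call the last pair crizotinib-resistant and crizotinib-sensitive. These names are read here as the 21-day drug culture and its 21-day control, from the study's design text, and the sign of every 21-day difference rests on that reading.

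Hyaluronan is a long unbranched sugar polymer of the extracellular matrix and is abundant in the matrix of the brain. The HAS enzymes sit in the plasma membrane, join the activated sugars UDP-glucuronic acid and UDP-N-acetylglucosamine, and push the growing chain out of the cell. Breakdown starts outside the cell, where CEMIP, the cell-surface protein CEMIP2 and the membrane-anchored hyaluronidase HYAL2 have been linked to cutting long chains, and ends in lysosomes, where HYAL1 and exoglycosidases act. Cells sense the polymer mainly through the receptor CD44.

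Values are log2 expression, so a difference of 1 is 2-fold. Array medians lay between 4.92 and 4.98. A gene is called different where a pair of arrays was at least 2-fold apart and the higher array was not below 4.96, the median of all values. By this rule 5.0% of 12468 features differed between the 24-hour arrays, 8.05% of 12450 between the 21-day arrays and 3.06% of 12397 between the arrays without drug. Each condition rests on a single array, so differences cannot be set against a spread between replicates, and precision is limited by how few arrays there are. In these bulk cultures, fewer cells that express a gene and less RNA per cell cannot be told apart. Of 8 glial and glioma markers, VIM, NES, CD44 and CHI3L1 stood at or above the median on all 4 arrays, while GFAP, S100B, OLIG2 and SOX2 were below it on all 4. CHI3L1, a secreted glycoprotein of mesenchymal glioma, was called higher in both crizotinib arrays, at 10.05 against 7.91 in vehicle and at 10.56 against 7.38 in the 21-day control. Its part in the results below was not tested.

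The members called different between a crizotinib array and its own control were HAS1 and HAS2 at 24 hours and HYAL3 at 21 days. The 250 bases before the start sites of HAS1 and HYAL3 are shown, 1 gene for each pair. No such sequence was available for HAS2. The HYAL3 start used is its outer one, which the overlapping gene NAA80 shares, so that stretch is not particular to HYAL3. They are the RefSeq sequences of build GRCh38.p14, both on the minus strand: chr19:51723992-51724241 for HAS1 and chr3:50299406-50299655 for HYAL3. Capitals mark matches on either strand to the motifs searched.
HAS1: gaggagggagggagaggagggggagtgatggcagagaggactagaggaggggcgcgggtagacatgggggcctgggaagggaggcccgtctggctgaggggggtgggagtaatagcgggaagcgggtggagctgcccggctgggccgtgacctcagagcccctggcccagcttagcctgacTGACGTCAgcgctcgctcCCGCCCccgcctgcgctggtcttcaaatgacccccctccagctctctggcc
HYAL3: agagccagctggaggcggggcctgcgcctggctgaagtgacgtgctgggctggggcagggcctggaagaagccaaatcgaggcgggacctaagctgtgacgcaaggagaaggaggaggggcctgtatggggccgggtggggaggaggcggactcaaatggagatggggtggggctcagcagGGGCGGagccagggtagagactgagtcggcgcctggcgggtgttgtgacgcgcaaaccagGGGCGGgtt
The motif of the factor SP1 was the GC box, searched as GGGCGG. The cyclic AMP response element (CRE) was searched as TGACGTCA. The AP-1 element was searched as TGANTCA. The TATA box was searched as TATAAA. An E-box was searched as CACGTG. The STAT element was searched as TTCNNNGAA, and no matches overlapped. The HAS1 stretch held a CRE from 69 to 62 bases and a GC box from 51 to 46 bases before the start. The HYAL3 stretch held GC boxes from 69 to 64 and from 9 to 4 bases before the start and no CRE. Over 35116 promoter windows of the same length, 1.65% held the CRE and 42.6% the GC box. AP-1 and STAT motifs were each in 6.57% of the windows, TATA in 10.7% and the E-box in 6.34%, and neither printed stretch held any of them. These matches describe letters, not binding.

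HAS2, the synthase that mouse embryos need to form the heart, had the widest range of the 8 members. Its level was 4.06 in the 24-hour crizotinib array and 5.52 in the 24-hour vehicle array, and 9.21 in the 21-day crizotinib array and 8.64 in the 21-day control (Entrez gene 3037). Both 21-day cultures were therefore high and both 24-hour cultures low, and the 24-hour crizotinib array alone was below the median of all values. Of the 3 comparisons, the widest gap was between the cultures that never saw drug. The 21-day control was 3.12 above the 24-hour vehicle array on the log2 scale, or 8.67-fold. In that comparison 1.68% of features were called higher, and since HAS2 was chosen for this difference nothing is read from that share. Against its own vehicle, the 24-hour crizotinib array was lower by 1.46, a 2.75-fold difference that also entered the choice of the set. Against its own control, the 21-day crizotinib array was higher by 0.57, or 1.49-fold, which is less than the 2-fold rule asks for.

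The choice of control sets the size of the HAS2 differences. With the 21-day control in place of vehicle, the 24-hour crizotinib array was lower by 4.58, and with the mean of both drug-free arrays it was lower by 3.02. The 21-day crizotinib array was 3.69 above the 24-hour vehicle array and 2.13 above the mean of the drug-free arrays, so it passed the 2-fold rule against either of these and not against its own control. The 21-day drug culture also stood 5.15 above the 24-hour drug culture, a 35.5-fold difference. How much of these gaps belongs to the drug, its dose, the time in culture, the passage or the array cannot be told apart. The opposite-strand RNA HAS2-AS1, whose gene overlaps HAS2, was at 3.46 in the 24-hour crizotinib array against 3.56 in vehicle, and at 4.13 in the 21-day crizotinib array against 4.02 in the 21-day control. All of these are below the median of all values. Its 21-day control was higher than its 24-hour vehicle by 0.45, the same direction as HAS2.

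HAS1, a second hyaluronan synthase (Entrez gene 3036), was lowest in the 24-hour crizotinib array. Its level there was 5.27, against 6.81 in vehicle. In the 21-day crizotinib array it was 6.99, against 6.06 in the 21-day control. All 4 arrays stood above the median, and the crizotinib array was the lower of its pair at 24 hours and the higher of its pair at 21 days. The 24-hour difference was -1.54, or 2.91-fold. The 21-day difference of 0.93, or 1.91-fold, was just short of the rule. HAS1 had a negative drug-free difference, -0.75 for the 21-day control minus vehicle, where HAS2 had a positive one. With the 21-day control as the comparator, the difference of the 24-hour crizotinib array was -0.79 and no longer past 2-fold. Set against the 24-hour vehicle, the 21-day crizotinib array differed by 0.18.

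HAS3, the remaining synthase (Entrez gene 3038), varied little. Its level was 5.36 in the 24-hour crizotinib array and 5.87 in vehicle, and 5.65 in the 21-day crizotinib array and 5.55 in the 21-day control. The 24-hour array was lower by 0.52 on the log2 scale and the 21-day array higher by 0.09, and no pair was 2-fold apart. All 3 synthases were thus lower in the 24-hour crizotinib array than in vehicle, HAS1 and HAS2 past the 2-fold rule, and all 3 were higher in the 21-day crizotinib array than in its control, none past the rule. Among all features that reached the level rule, 2.13% were called lower at 24 hours. The fall of HAS2 entered the choice of the set, so nothing is read from setting the synthases beside that share.

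**Figure D1:**
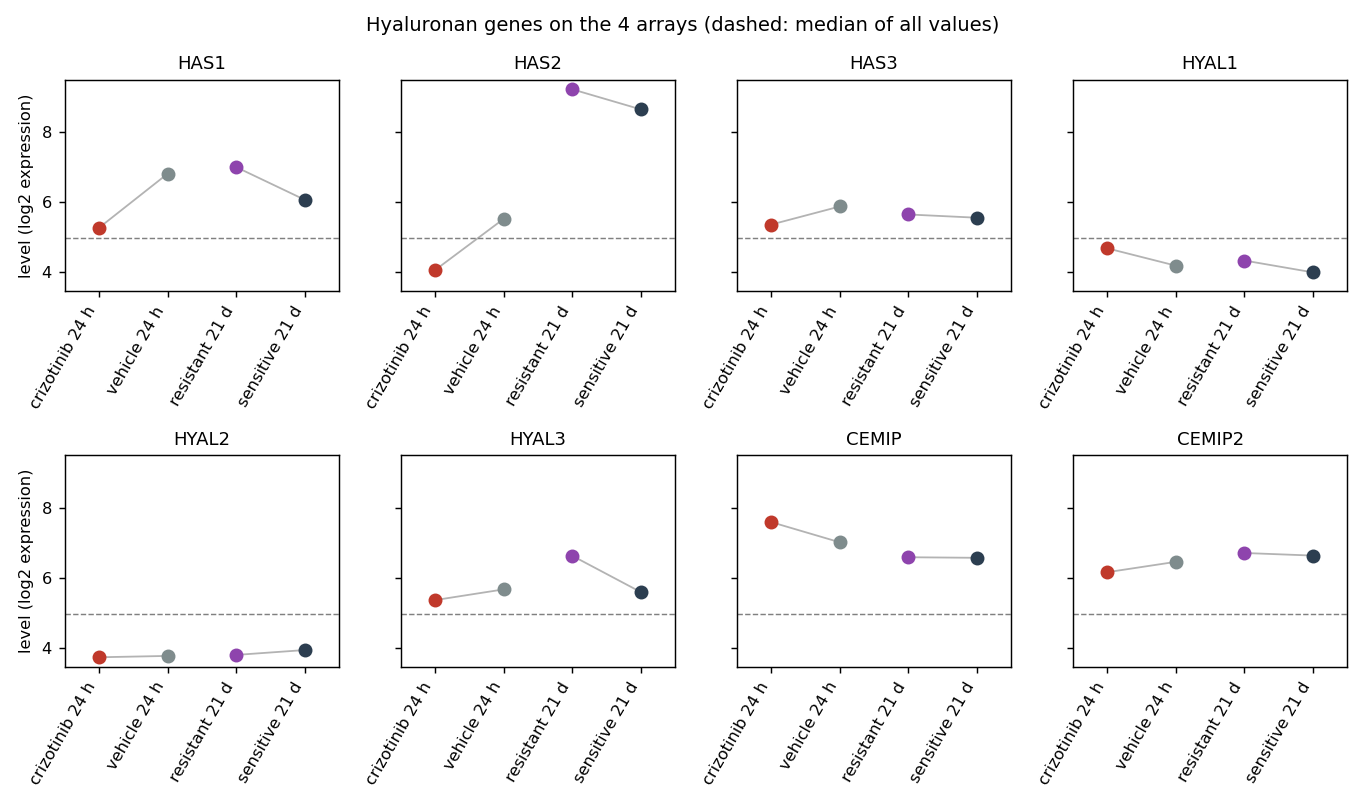
Log2 expression level of each of the 8 members (1 panel each, shared axis) on the 4 arrays, with grey lines joining each crizotinib array to its own control and a dashed line at the median of all values, 4.96. HAS2 stands at 9.21 and 8.64 in the 21-day arrays, against 4.06 and 5.52 in the 24-hour arrays, and HYAL1 and HYAL2 lie below the dashed line on every array.

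Among the hyaluronidases, HYAL3 was the member that parted the 21-day arrays. HYAL3 (Entrez gene 8372) belongs to the hyaluronidase family, but its own enzyme activity is weak or lacking in most assays. Its level was 6.62 in the 21-day crizotinib array and 5.59 in the 21-day control, and 5.36 in the 24-hour crizotinib array and 5.67 in vehicle. The 21-day crizotinib array was the single high value, and the other 3 arrays lay close together. The 21-day difference was 1.04, or 2.05-fold, just inside the rule, where HAS1 at 0.93 was just outside it. In that comparison 3.97% of features were called higher. The call was lost when each array was centred on its own median (0.99), against the 24-hour vehicle array (0.96) and against the mean of the drug-free arrays (0.996).

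HYAL1, the lysosomal hyaluronidase (Entrez gene 3373), was at 4.68 in the 24-hour crizotinib array and 4.19 in vehicle, and at 4.33 in the 21-day crizotinib array and 3.996 in the 21-day control. HYAL2, the membrane-anchored hyaluronidase (Entrez gene 8692), was at 3.73 in the 24-hour crizotinib array and 3.77 in vehicle, and at 3.80 in the 21-day crizotinib array and 3.94 in the 21-day control. Neither reached the median of all values on any array, so neither could be called. Detection calls were not used here, and a low value is not an absent transcript. HYAL1 was higher in both crizotinib arrays, by 0.49 and 0.34, and HYAL2 differed by -0.04 and -0.14.

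The genes HYAL3, HYAL1 and HYAL2 lie next to each other, and HYAL3 overlaps NAA80, an actin acetyltransferase gene with the same outer start in the RefSeq annotation. In the 21-day pair NAA80 was at 5.80 in the crizotinib array and 5.53 in the control, a difference of 0.27 against the 1.04 of HYAL3. At 24 hours NAA80 was higher by 0.43, where HYAL3 was lower by 0.31. How far the probes of the overlapping genes share signal was not tested. Of 9 neighbours measured around the HYAL genes, none was past the 2-fold rule in any of the 3 comparisons. RASSF1, a RAS-association tumour suppressor, differed most, at -0.93 between the 24-hour arrays.

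CEMIP, a secreted protein that skin fibroblasts use to depolymerise hyaluronan (Entrez gene 57214), was at 7.59 in the 24-hour crizotinib array and 7.01 in vehicle. In the 21-day arrays it was at 6.59 with crizotinib and 6.57 without. The 24-hour drug array was the highest of the 4, and both 21-day arrays were nearly equal. The 24-hour difference was 0.58, or 1.49-fold, and the 21-day difference 0.02. The drug-free difference of CEMIP, 21-day control minus vehicle, was -0.44, and the 24-hour crizotinib array passed the 2-fold rule, of the controls tried, only when set against the 21-day control, at 1.02.

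CEMIP2, a transmembrane relative of CEMIP (Entrez gene 23670), was at 6.16 in the 24-hour crizotinib array and 6.45 in vehicle, and at 6.71 in the 21-day crizotinib array and 6.63 in the 21-day control. Its differences were -0.30 and 0.07. At 24 hours CEMIP and the synthases lay on opposite sides of 0: CEMIP was the highest of the 8 differences and HAS1 the lowest. CEMIP was not past the 2-fold rule. Of the other breakdown members, HYAL1 at 0.49 lay on the side of CEMIP. HYAL2 at -0.04, HYAL3 at -0.31 and CEMIP2 lay on the side of the synthases.

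Counted over all 8 members, 6 were lower and 2 higher in the 24-hour crizotinib array, with a median difference of -0.30 against -0.01 over all features. Of the lower members, HYAL2 at -0.04 was near 0, and the fall of HAS2 entered the choice of the set. In the 21-day crizotinib array 7 were higher and 1 lower, with a median of 0.22 against 0.01. Of the higher members, CEMIP at 0.02, CEMIP2 at 0.07 and HAS3 at 0.09 were near 0. CEMIP was at -0.03 once the arrays were centred on their medians. The shares of all features above and below 0 were not counted, so neither a joint fall at 24 hours nor a joint rise at 21 days is read from these signs. Between the arrays without drug 3 were higher and 5 lower in the 21-day control, with a median of -0.14 against 0.00. Of the 8, 6 passed the level rule in each comparison, and HYAL1 and HYAL2 did not. The 24-hour and the drug-free comparison share the vehicle array, and the 21-day and the drug-free comparison share the 21-day control.

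**Figure D2:**
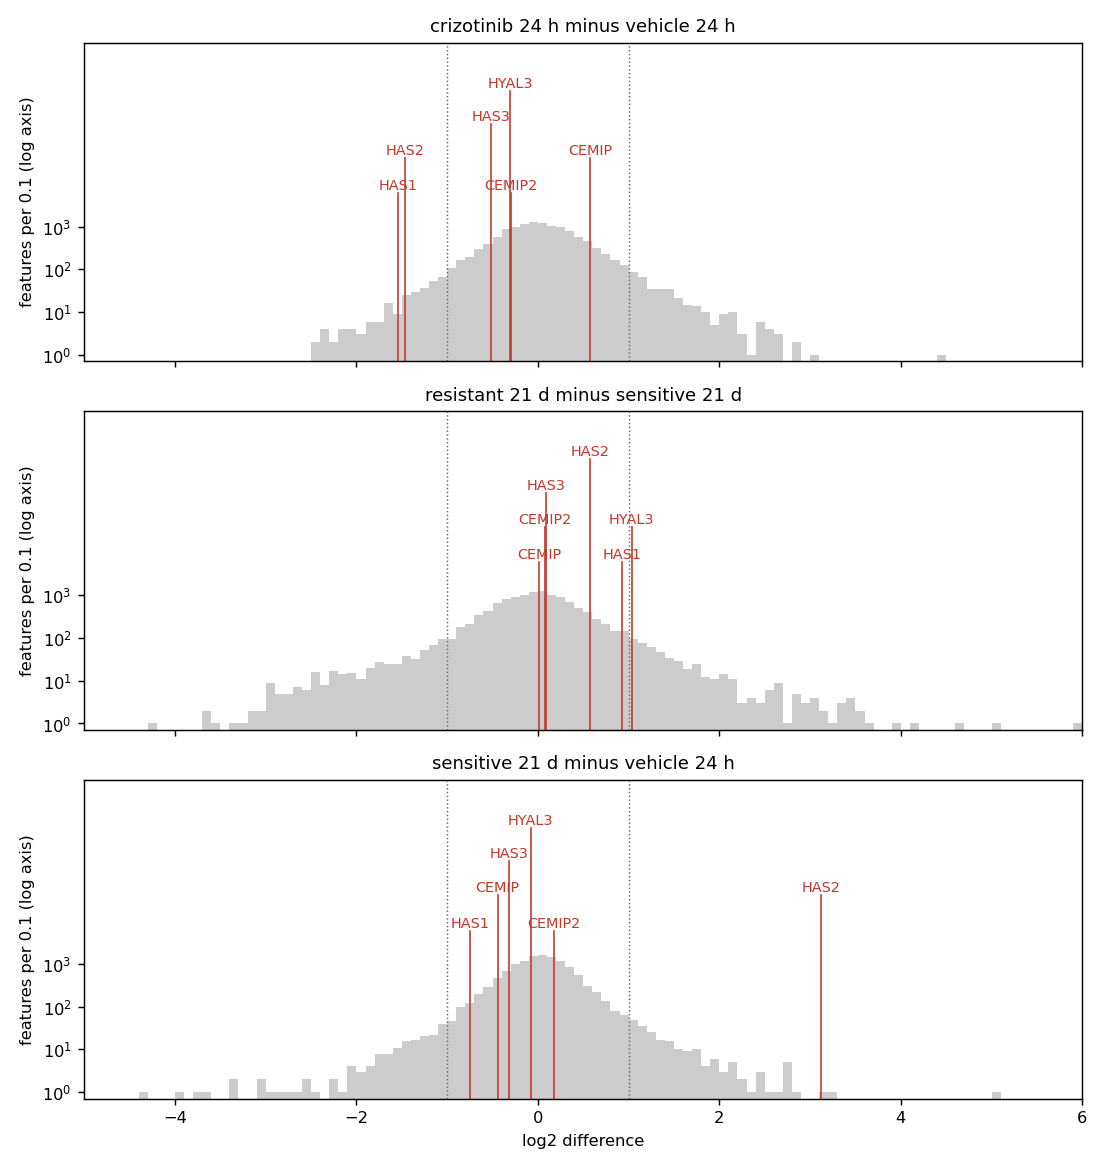
Number of features per 0.1 of log2 difference (log axis) for features past the level rule in each of the 3 comparisons, with red lines at the 6 members that passed it and dotted lines at 2-fold; the heights of the red lines only separate the names. HAS1 at -1.54 and HAS2 at -1.46 lie outside the dotted lines at 24 hours, HYAL3 at 1.04 at 21 days, and HAS2 at 3.12 between the drug-free arrays.

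The sugars that the synthases join come from a short supply route, for which all 8 listed genes were measured. None was past the 2-fold rule in any comparison. The median difference was -0.16 at 24 hours, 0.32 at 21 days and 0.11 between the drug-free arrays. The largest difference was that of PGM3, a phosphoacetylglucosamine mutase, at 0.86 for the 21-day control minus vehicle. GFPT2, one form of the enzyme that commits sugar to the hexosamine route, is named after its values were seen. It was at 9.52 in the 24-hour crizotinib array against 10.36 in vehicle, and at 10.57 in the 21-day crizotinib array against 9.86 in the 21-day control. Its differences of -0.84 and 0.71 had the signs of HAS1 in both pairs, and its drug-free difference of -0.50 did too. GFPT1 and UAP1 had the signs of HAS1 in both pairs but not between the drug-free arrays. The other listed supply genes, UGP2, UGDH, GNPNAT1, PGM3 and UAP1L1, did not have them in both pairs.

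Of 8 hyaluronan receptors measured, none was past the rule at 24 hours. CD44, the main receptor, was at 10.66 in the 24-hour crizotinib array and 11.26 in vehicle, a difference of -0.60, and at 11.21 in the 21-day crizotinib array and 11.08 in the 21-day control. At 21 days 1 receptor was higher and 1 lower by the rule. LAYN, the membrane lectin layilin, was at 7.37 in the 21-day crizotinib array and 6.11 in the control, a difference of 1.26. HMMR, which also works on the mitotic spindle, was at 6.24 in the 21-day crizotinib array and 8.66 in the control, which is 5.33-fold apart. TLR4, an innate immune receptor that hyaluronan fragments have been reported to engage, parted the drug-free arrays, with 5.69 in the 21-day control and 4.42 in vehicle. That difference of 1.27 had the direction of HAS2 in the same comparison. The receptors LYVE1, STAB1, STAB2 and TLR2 were below the median on all 4 arrays.

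Of 16 hyaluronan-binding matrix and link proteins measured, 1 was past the rule. VCAN, the large proteoglycan versican, was at 8.69 in the 21-day crizotinib array and 9.71 in the 21-day control, a difference of -1.02. At 24 hours it was at 9.29 with crizotinib and 9.90 with vehicle. The medians of the list were -0.12 at 24 hours, 0.11 at 21 days and -0.14 between the drug-free arrays. The lysosomal exoglycosidase genes HEXA and GUSB were each within 2-fold in all comparisons, and HEXA had the largest difference, 0.55 higher in the 21-day crizotinib array. The other hyaluronidase genes, HYAL4, SPAM1 and the pseudogene HYAL6P, were far below the median on every array, and the largest difference was 0.32, for HYAL6P between the drug-free arrays.

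Of these 38 pathway genes outside the members, 17 reached the level rule at 24 hours, 19 at 21 days and 18 between the drug-free arrays, and the rest could not be called. Past the rule were 0 of the 17, 3 of the 19 and 1 of the 18, where 5.0%, 8.05% and 3.06% of all features that reached the level rule were called. Counts this small are given as a description, and nothing particular to the pathway is read from them.

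**Figure D3:**
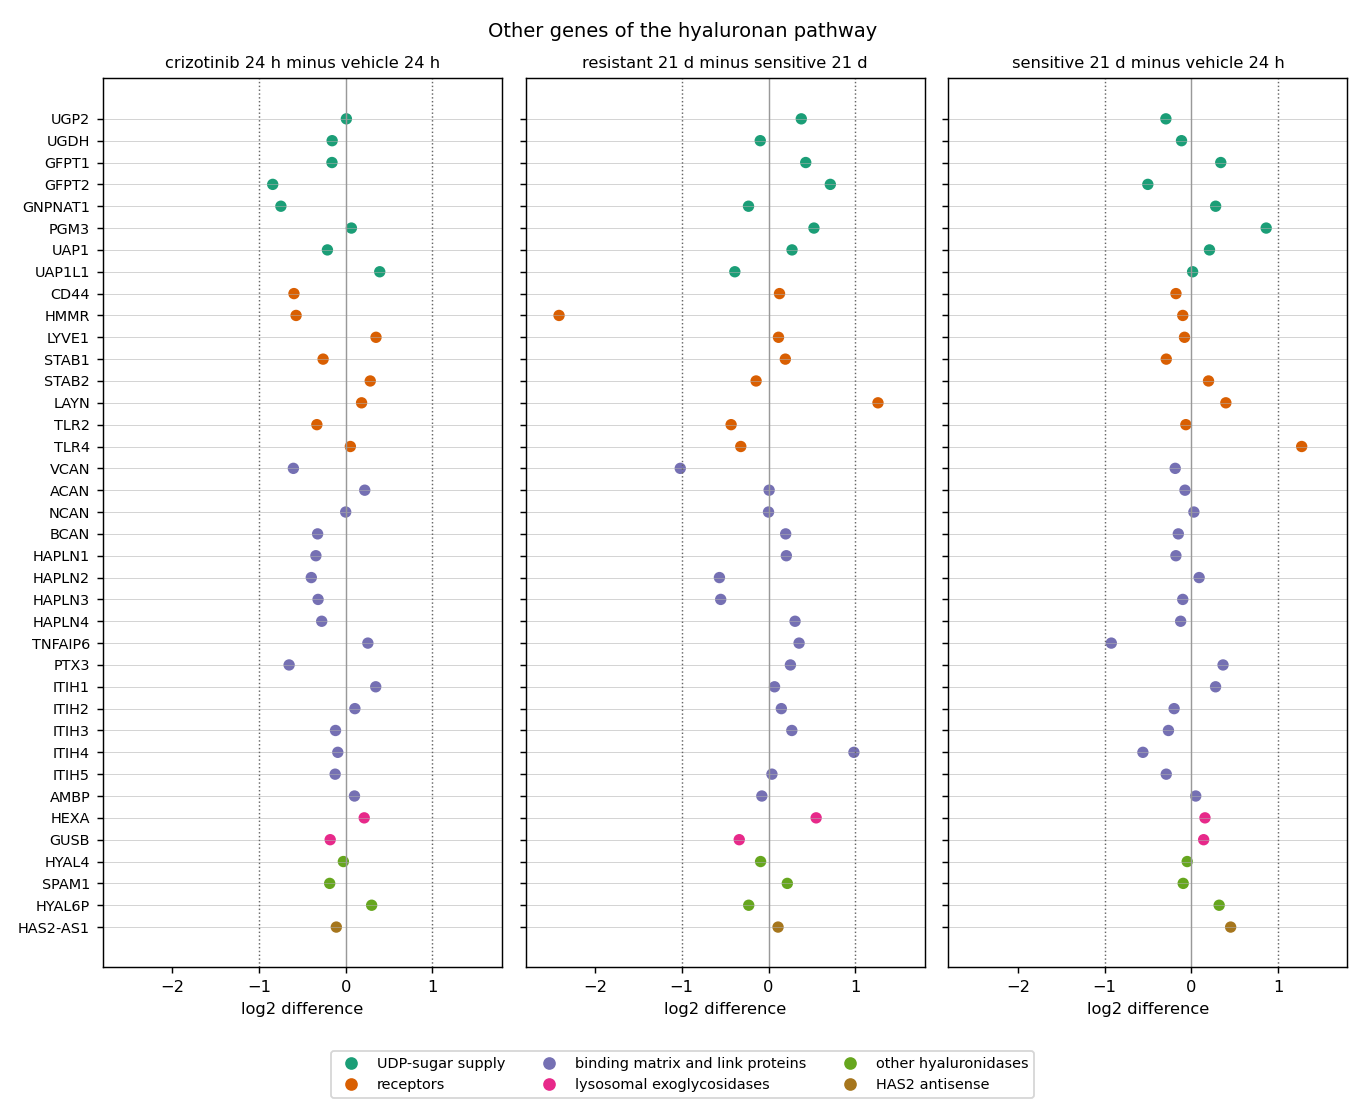
Log2 difference of each of the 38 other pathway genes in the 3 comparisons, coloured by list, with dotted lines at 2-fold. No point lies outside the lines at 24 hours, while HMMR, LAYN and VCAN do at 21 days and TLR4 does between the drug-free arrays.

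Levels of fibroblast markers differed within the pairs and are given beside HYAL3 and the synthases, since fibroblasts are a known source of hyaluronan. Their summed log2 level over 6 genes was 44.1 in the 21-day crizotinib array and 38.5 in the 21-day control, and 40.2 in the 24-hour crizotinib array and 37.8 in vehicle. Most of the 21-day gap was DCN: without it the other 5 summed to 35.8 in the 21-day crizotinib array and 35.2 in the control, and to 36.8 in the 24-hour crizotinib array and 34.9 in vehicle. At 21 days DCN, the proteoglycan decorin, was at 8.29 with crizotinib against 3.27 in the control, and the collagen COL1A1 was at 8.39 against 9.54. So 1 of the 6 was higher and 1 lower by the rule at 21 days. At 24 hours 1 was higher, the receptor PDGFRB, at 8.17 with crizotinib against 6.68 with vehicle. These are log2 values, and the scale has no zero from which a marker could be called absent. The summed level of 5 leukocyte markers was 23.8 in the 21-day crizotinib array and 22.6 in the control, that of 4 endothelial markers 17.9 and 17.3, and that of 5 epithelial markers 22.0 and 22.5. Of the leukocyte markers, CD68 alone was at 11.56 and 10.79 in these arrays, and the other 4 were below the median on every array. The endothelial marker KDR and the epithelial marker KRT8 were above the median on all 4 arrays. EPCAM was above it in the 24-hour crizotinib array alone, and the rest of both lists was below it throughout. In the 24-hour crizotinib and vehicle arrays the leukocyte sums were 22.2 and 22.9, the endothelial 18.0 and 17.9, and the epithelial 22.7 and 23.1. The part of any such markers in the results was not tested.

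Features whose 4-array pattern was nearest to a member were found by Euclidean distance between levels, each minus the gene's own mean. The pool was 2723 named features with a range of at least 2-fold and a highest array not below the median of all values. For HAS2 the nearest were CXCL8, SERPINB2, IL1B, SNORD61 and CSF3, at distances from 1.10 to 1.57. CXCL8, a neutrophil chemokine, was at 6.62 in the 24-hour crizotinib array and 6.75 in vehicle, and at 11.36 in the 21-day crizotinib array and 10.01 in the 21-day control. IL1B, an inflammatory cytokine, was at 6.67 and 7.37 in the 24-hour crizotinib and vehicle arrays, and at 11.83 and 9.61 in the 21-day crizotinib and control arrays. Both shared the gap between 21-day and 24-hour cultures, but neither was as low in the 24-hour crizotinib array relative to vehicle as HAS2.

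For HAS1 the nearest were KRTAP10-5, CCND1, HBEGF, GOLGA6A and ZFAS1, at distances from 0.386 to 0.445. CCND1, the cell cycle regulator cyclin D1, was at 9.59 in the 24-hour crizotinib array and 10.79 in vehicle, and at 11.37 in the 21-day crizotinib array and 10.56 in the 21-day control. HBEGF, a ligand of the EGF receptor, was at 5.83 and 7.32 in the 24-hour crizotinib and vehicle arrays, and at 7.56 and 7.07 in the 21-day crizotinib and control arrays. No feature was nearest to both synthases.

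For HYAL3 the nearest were IL32, HLA-E, RPS20, TRNP1 and FBLN5, at distances from 0.018 to 0.0971. All had a single high value in the 21-day crizotinib array, which follows from ranking by closeness to HYAL3. IL32 and FBLN5 reached the median of all values in that array alone. For CEMIP the nearest included NDUFB5, CREB5, STAU2 and ADGRL1, at distances from 0.0239 to 0.0676. With only 4 arrays a feature can easily fall close to a pattern, and how many lay within a given distance was not counted. These names are therefore a description of 4 values each.

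**Figure D4:**
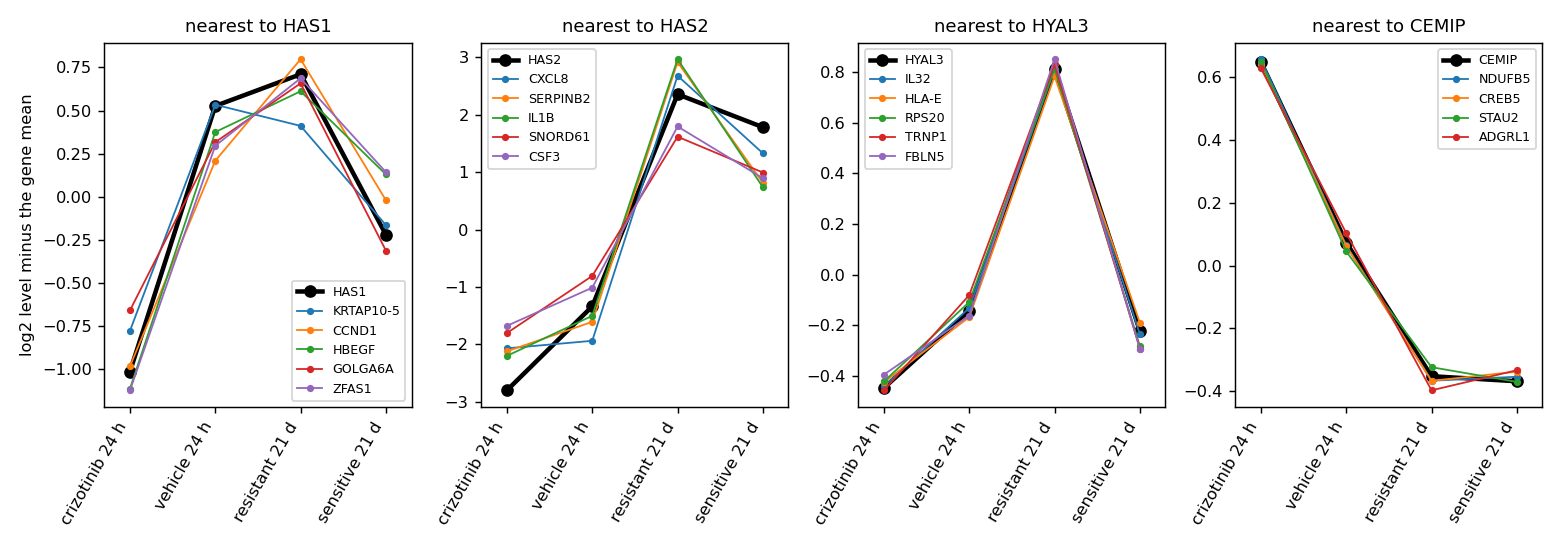
Log2 level minus the gene's own 4-array mean for HAS1, HAS2, HYAL3 and CEMIP (black) and up to 5 of their nearest features (colours), with lines that join the points of 1 gene only to show which belong together. HYAL3 and CEMIP lie within 0.0971 and 0.0676 of the neighbours drawn, and the neighbours of HAS2 lie at least 1.10 away. These distances are not scaled to a gene's range, which was widest for HAS2, so they do not compare how well members are matched.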

How the data were processed

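Total RNA of U87 cells was extracted at one time with 1 kit, labelled with biotin and hybridised to Affymetrix whole-transcript arrays, per the labels' protocols. The authors deposited log2 expression values; RMA, affy 1.36.1 and R 2.15.1 are named in the submitters' processing notes. The genome build is not given in the sources used here. Features carry Entrez gene numbers. The platform's gene table named 22458 of 23786, and its numbers equal the feature numbers in all 22458. HAS1 and HYAL1 were among 635 further features named from their Entrez number through RefSeq (GRCh38.p14), and 693 stayed unnamed.

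Differences were taken between 1 array and 1 control with Python 3.11.15, numpy and pandas, and counted by size, without p-values. The counting rule and the likeness ranking were tried on simulated data, to check that they run as described. The planted changes were past 2-fold, in features well above the median and with little noise. For the ranking an exact copy of a gene was planted. This check does not bear on calls near the 2-fold rule. Named genes were all 8 members, pathway genes at least 2-fold apart or else the one with the largest difference of each list, and the 5 nearest features of members with a 2-fold range. GFPT2 and several marker genes were named after their values were seen. The members and lists were chosen with earlier results of these data known.

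Alternatives were the level rule, the fold threshold, centring, repeated quantile normalization and the choice of control. A listed pathway gene and a feature near CEMIP are not reported here.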

Additional observations from a re-analysis of the deposited data

Results flagged for a closer look

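The difference between crizotinib and control had opposite signs in the 24-hour and 21-day pairs for HAS1, HAS2 and HYAL3, and the 21-day difference exceeded the 24-hour one by at least 1 on the log2 scale. HAS1 had 2.47 as the 21-day minus the 24-hour difference, HAS2 had 2.03 and HYAL3 had 1.34. For none of these genes did both differences pass the 2-fold rule. HAS1 at 0.93 and HAS2 at 0.57 fell short at 21 days, and HYAL3 at -0.31 fell short at 24 hours. The 24-hour difference of HAS2 also entered the choice of the set. With 1 array per condition these gaps were not tested, and dose, time and culture differ between the pairs.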

How the results depend on the processing

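Centring or renormalizing the arrays moved the 48 member differences by at most 0.06 (log2), and 1 of them, near 0, changed sign. Another control moved 12 of 32 member differences by more than 0.30, and 5 changed sign, none of them called. The 0.30 is the standard deviation of the drug-free difference over features past the level rule, divided by the square root of 2. It includes differences between the cultures and is not a spread between replicates. At 24 hours, 2 members stayed the count under every alternative except a level rule at the upper quartile (6.995), which left 0, and they were HAS2 and CEMIP, not HAS1, against the 21-day control. At 21 days the count of 1 became 0 at the upper quartile, 0 after centring and 2 at 1.5-fold. Against vehicle, or against the mean of the drug-free arrays, the 1 member was HAS2 in place of HYAL3. Between the drug-free arrays it became 2 at 1.5-fold. For the pathway genes, 1.5-fold gave 5 in place of 0 at 24 hours and 3 in place of 1 between the drug-free arrays, where the upper quartile gave 0. Over all features the counts of 624, 1002 and 379 (24 hours, 21 days, drug-free) became 2360, 2735 and 1427 at 1.5-fold and 356, 594 and 152 at the upper quartile, and 1337 at 24 hours against the 21-day control. The lower fold and the stricter level rule change these counts by construction, centring shifted every 21-day difference by -0.05, and the other changes follow from the array used as control. No paired analysis was possible because each condition has 1 array and the labels number no replicates.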
